A study of Mus musculus with 2 samples.

Results

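Ribosome biogenesis and RNA polymerase I genes are described here as 47 mouse genes, chosen by name for their part in making ribosomes. No cut on their values in these data was used, but earlier results of these data were known when they were chosen. All 47 symbols matched a row of the deposited gene tables, which hold 21474 protein-coding genes in all. The measurements are total RNA-seq of granulocyte-monocyte progenitors (GMP), marrow precursors of granulocytes and monocytes. Pools of 100 such cells were taken from male mice of the C57BL/6J strain, aged 5 to 6 weeks, with no treatment named, and spike-in RNA was added. The 2 pools, replicate 1 and replicate 2, form a single group. Their labels number them as biological replicates with separate sample identifiers but share a donor identifier and do not say whether the animals differed, so an SD below is the spread of these pools alone, and how much of it is technical is not known. With no group to compare with, there is no test of a condition: values, spreads and shares of all genes are given.

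Ribosomes are built in the nucleolus. RNA polymerase I copies the ribosomal DNA into a long precursor, and assembly factors bind it as it emerges, modify it, cut it and fold it into a small and a large subunit. RNA polymerase III makes the short 5S rRNA. Most of these factors leave before the subunits are exported, and a last set acts in the cytoplasm. Growing and dividing progenitors are known for high ribosome production, and defects in several of these genes cause marrow failure in people.

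The libraries held 40509954 expected counts in replicate 1 and 35675702 in replicate 2, where an expected count is an estimated number of reads. All 8 GMP markers, among them Mpo, Elane, Kit and Cd34, reached 1 TPM (a level corrected for transcript length and scaled to a fixed total) in both libraries, and none of 8 markers of other blood, stromal or endothelial cells did. Of those 8, Ly6a, Il7r, Hbb-bs, Cd3e and Col1a1 were at 0 counts in both libraries.

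The 47 genes were all expressed. All 47 reached 1 TPM in both libraries, against 45.6% of protein-coding genes. Of the 47, 41 reached 10 TPM in both, against 26.1% of protein-coding genes, and 9 reached 50 TPM in both, against 5.87%. Their median TPM was 29.7 on average over the libraries (26.9 in replicate 1 and 32.2 in replicate 2), against 0.55 over all protein-coding genes and 13.3 over the 10278 that average at least 1 TPM. The median member stood at percentile 88.1 of protein-coding genes, and the members ran from percentile 68.5 to 99.6. Together they took 0.320% of TPM in replicate 1 and 0.335% in replicate 2. A single locus with rRNA sequence, Gm42418, had 260078 and 239191 TPM, and without rRNA, numeric and spike-in rows in the total the members' share was 0.565% on average. With TPM rescaled without such rows and a few other abundant RNAs, the members' median was 52.6. As deposited, their share of the expected counts was 0.404% in replicate 1 and 0.428% in replicate 2, with 95% Wilson limits of 0.402% and 0.406% for the first and 0.426% and 0.431% for the other, which cover counting error only. Each member had at least 435 expected counts in each library. A gene's TPM can still rest in part on few reads given to short transcript models, as for Ddx51 below. In Rrp9, 20 counts on a model of 411 bases made up 20.75% of the gene's TPM in replicate 1. In a pool of cells, a transcript held by fewer cells and one held at a lower level per cell cannot be told apart.

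**Figure D1:**
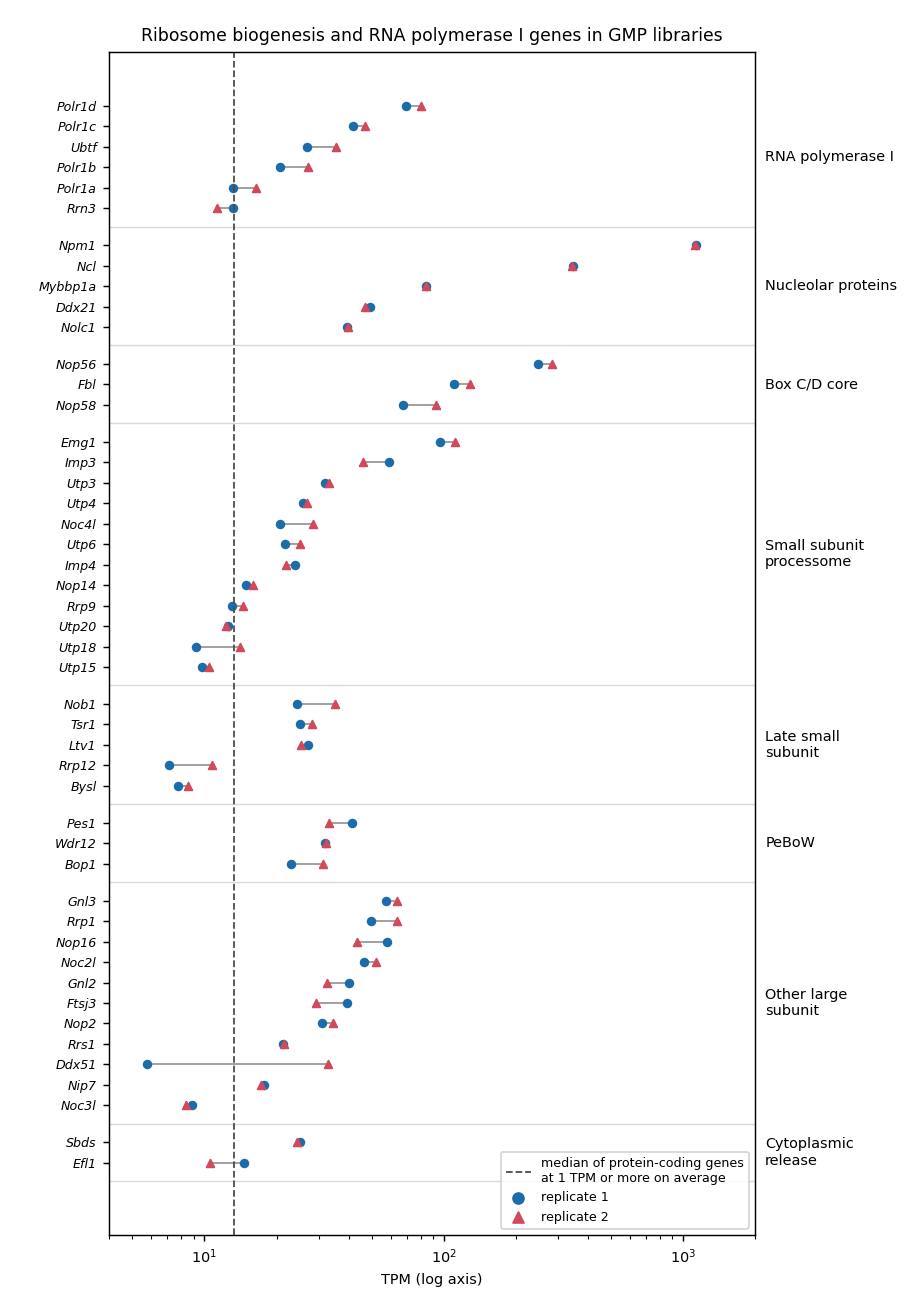
TPM of each of the 47 genes (log axis) in replicate 1 (circles) and replicate 2 (triangles), grouped by role and joined by a grey line. The dashed line is the median of protein-coding genes that average at least 1 TPM (13.3); Npm1 lies furthest right, at 1132 and 1118 TPM, and Ddx51 has the widest gap between its 2 points.

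The sequences that the results below turn on stand first: the optional exon of Ubtf, the optional exon and the differing coding ends of Npm1, the divergent coding starts of Polr1d, and a short promoter motif. Exon sequences were read from GENCODE M21 transcripts on GRCm38, and each is written 5′ to 3′ on the gene's strand. Ubtf encodes the upstream binding factor that loads RNA polymerase I onto ribosomal DNA. Its alternative exon of 111 bases lies at chr11:102310926-102311036 on the minus strand, within the coding part. In capitals is the exon, and in lower case 30 coding bases on either side:
Ubtf alternative exon: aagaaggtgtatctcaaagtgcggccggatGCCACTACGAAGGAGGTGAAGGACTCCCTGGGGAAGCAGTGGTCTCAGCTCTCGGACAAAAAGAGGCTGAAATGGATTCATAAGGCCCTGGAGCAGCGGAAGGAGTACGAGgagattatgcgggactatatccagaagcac

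Npm1 encodes nucleophosmin, the abundant histone-binding chaperone of the nucleolus. Its transcripts differ in an exon of 84 bases at chr11:33156664-33156747 on the minus strand, shown in capitals with 30 coding bases on either side. They also differ at the coding end: the long form (ENSMUST00000075641) closes with 111 coding bases that the short-ended form (ENSMUST00000109354) lacks, and the short-ended form has 6 closing bases of its own. These own bases are in capitals after 30 shared ones, without the stop codon:
Npm1 alternative exon: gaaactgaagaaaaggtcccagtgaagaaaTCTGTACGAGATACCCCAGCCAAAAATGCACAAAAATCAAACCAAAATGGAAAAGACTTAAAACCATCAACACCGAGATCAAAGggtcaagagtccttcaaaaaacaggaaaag
Npm1 long form, coding end: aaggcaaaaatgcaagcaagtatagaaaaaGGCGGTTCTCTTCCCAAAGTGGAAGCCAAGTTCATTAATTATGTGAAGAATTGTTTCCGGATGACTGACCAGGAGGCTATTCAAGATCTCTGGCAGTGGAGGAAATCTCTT
Npm1 short-ended form, coding end: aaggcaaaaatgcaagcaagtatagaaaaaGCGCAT

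Polr1d, on the plus strand of chromosome 5, encodes a small subunit found in RNA polymerases I and III. Its 2 transcripts share their first 26 coding bases (lower case) and then run into different exons, of which the next 64 bases are in capitals. Polr1d-201 has 373 coding bases of its own and Polr1d-202 has 352:
Polr1d-201 coding start: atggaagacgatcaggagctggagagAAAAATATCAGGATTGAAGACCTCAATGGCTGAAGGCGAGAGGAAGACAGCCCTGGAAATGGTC
Polr1d-202 coding start: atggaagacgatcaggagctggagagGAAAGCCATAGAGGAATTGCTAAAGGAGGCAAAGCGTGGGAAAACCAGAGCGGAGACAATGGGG

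RNA polymerase I and its transcription factors were expressed at moderate levels. The 6 genes had a median of 27.5 TPM, all 6 reached 10 TPM in both libraries, and 5 of them were higher in replicate 2. Polr1d, shared with RNA polymerase III, had 69.5 TPM in replicate 1 and 80.4 in replicate 2. Polr1c, the other subunit shared with RNA polymerase III, had 41.6 and 46.7 TPM. By the gene's total TPM these were the highest of the 6, and their values did not overlap with each other or with the rest. The total of Polr1d sums 2 transcripts for different proteins, and each of them alone was below the total of Polr1c in both libraries. On coding transcripts alone Polr1c had 39.95 and 39.89 TPM, and Polr1d-202 (36.11 and 42.63 TPM) was above it in replicate 2. The total of Polr1d is therefore not the level of the shared subunit alone.

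The catalytic core was lower. Polr1a, the largest subunit, had 13.2 TPM in replicate 1 and 16.4 in replicate 2, an average of 14.8 ± 2.31 (SD, n = 2). Polr1b, the partner that closes the active site with it, had 20.7 and 27.0 TPM, above Polr1a in both libraries. On coding transcripts alone, which held 68.4% and 55.8% of its TPM, Polr1b had 14.1 and 15.05 TPM and was below Polr1a in replicate 2. Ubtf had 26.9 and 35.5 TPM. Rrn3, the factor that makes the polymerase competent to start, was the lowest at 13.2 and 11.3 TPM (12.2 ± 1.32, SD, n = 2), level with Polr1a in replicate 1 and below it in replicate 2. The values of Ubtf and Polr1b overlapped across libraries, so the order of those neighbours did not hold beyond their spread. Within each library Ubtf was above Polr1b, both by total TPM and on coding transcripts alone (26.9 and 30.45 TPM for Ubtf).

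Among 9 further genes of this polymerase and its promoter factors, all 9 reached 1 TPM in both libraries, with a median of 11.9 TPM. By the average the highest was Taf1d (57.0 and 71.3 TPM), whose values overlapped with those of Polr1h (64.1 and 39.2 TPM), and the lowest was Taf1c (1.42 and 6.79 TPM). Taf1d and Taf1c are subunits of the selectivity factor that recognises the ribosomal DNA promoter. Set beside the other nuclear polymerases, the subunits used by all of RNA polymerases I, II and III had a median of 45.1 TPM over 5 genes, those of RNA polymerase II alone 38.3 TPM over 7, and those of RNA polymerase III alone 10.2 TPM over 11. Polr1a stood in both libraries between Polr2a (79.1 and 73.5 TPM) and Polr3a (5.66 and 8.43 TPM), the largest subunits of the other polymerases.

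**Figure D2:**
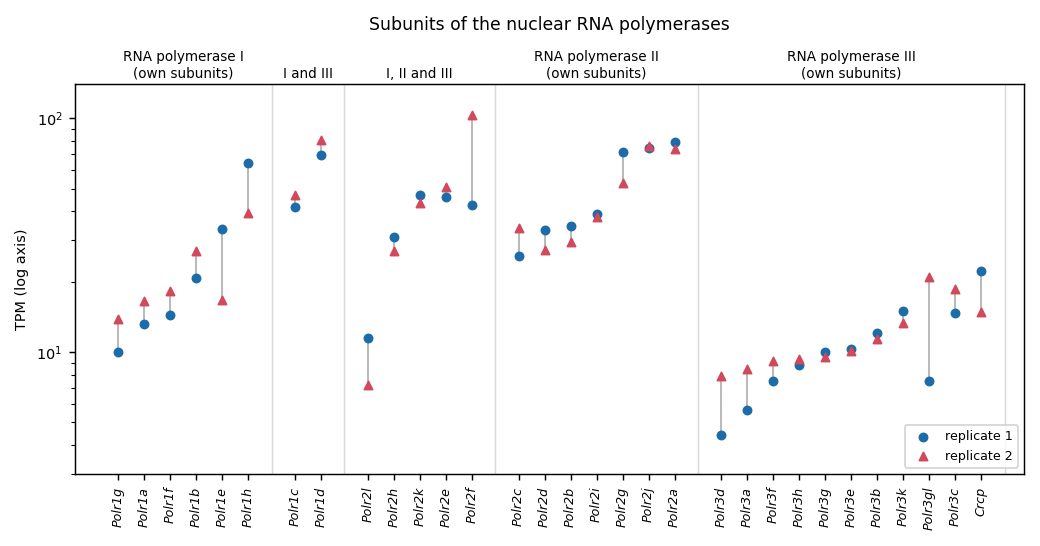
TPM (log axis) of the subunits of the nuclear RNA polymerases in replicate 1 (circles) and replicate 2 (triangles), grouped by the polymerases that use them. Polr1c and Polr1d, shared by RNA polymerases I and III, sit at 41.6 to 80.4 TPM, and Polr1a sits at 13.2 to 16.4 TPM between Polr3a and Polr2a. Polr1d is drawn by its total over 2 transcripts for different proteins.

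The nucleolar proteins included the most abundant of the 47, Npm1 and Ncl. Npm1 had 1132 TPM in replicate 1 and 1118 in replicate 2, which places it at rank 82 of the protein-coding genes. Npm1 alone made up 34.3% of the summed TPM of the 47 genes and was 37.9-fold above their median. Ncl, encoding nucleolin, which binds the nascent precursor, had 346 and 343 TPM and made up 10.5%. Mybbp1a, which acts in rRNA transcription and processing, had 84.1 TPM in each library. Ddx21, an RNA helicase of the nucleolus, had 49.1 and 46.7 TPM. Nolc1, a chaperone of small nucleolar ribonucleoproteins, was the lowest of the 5 at 39.4 and 39.8 TPM. These 5 genes were close to equal in the 2 libraries, and their order by total TPM was the same in both.

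The core proteins of box C/D particles, which carry the guide RNAs for ribose methylation, had a median of 119.7 TPM, against 84.1 TPM for the 5 nucleolar proteins. Nop56 had 248 TPM in replicate 1 and 282 in replicate 2, Fbl (fibrillarin, the methyltransferase itself) 111 and 129 TPM, and Nop58 67.7 and 92.6 TPM. By total TPM all 3 were higher in replicate 2, and all 3 were above 50 TPM in both libraries. The order Nop56, Fbl, Nop58 held in both libraries, by the gene's total TPM. On coding transcripts alone this turned: Nop56 had 139 TPM in replicate 1 and 117 in replicate 2, and Nop58 57.2 and 50.95 TPM, both lower in replicate 2, where Fbl stood above Nop56. Snu13, the fourth core protein and not one of the 47, had 124 and 129 TPM.

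The small subunit processome, the large particle that assembles on the precursor and contains the U3 RNA, spanned a wide range. Its 12 genes had a median of 23.2 TPM, and 10 of the 12 reached 10 TPM in both libraries. Emg1, a methyltransferase of small-subunit rRNA, was highest at 96.4 TPM in replicate 1 and 111 in replicate 2. Imp3, a partner of U3 RNA, followed at 58.8 and 46.1 TPM. Both stood clear of the other 10, which lay between 9.22 and 33.2 TPM.

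The middle of that range held Utp3 (31.95 and 33.2 TPM), Utp4 (25.8 and 26.8 TPM), Noc4l (20.8 and 28.4 TPM), Utp6 (21.7 and 25.2 TPM) and Imp4 (24.0 and 22.0 TPM), all proteins of the particle. Noc4l, which acts with Nop14 in yeast, was above Nop14 (14.9 and 15.9 TPM) in both libraries. Rrp9, a protein bound to U3 RNA, had 13.1 and 14.5 TPM. At the low end stood Utp20 (12.6 and 12.3 TPM), Utp15 (9.81 and 10.5 TPM) and Utp18 (9.22 and 14.1 TPM). Utp15 averaged 10.1 ± 0.467 TPM and Utp18 11.6 ± 3.43 TPM (SD, n = 2 each), so these neighbours did not differ beyond their spread. Imp3 and Imp4, known to sit in one complex, were far apart, with Imp3 above Imp4 in both libraries.

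The factors that finish and export the small subunit were modest, with a median of 26.1 TPM over 5 genes. Nob1, the nuclease that trims the end of small-subunit rRNA, had 24.4 TPM in replicate 1 and 35.1 in replicate 2. Ltv1, needed for export of the small subunit in yeast, had 27.0 and 25.3 TPM, and Tsr1, a GTPase-like factor of late assembly, 25.1 and 28.2 TPM. These 3 overlapped by total TPM, while on coding transcripts Nob1 (8.97 and 20.8 TPM) was below the other two. Rrp12, an export factor, had 7.14 and 10.8 TPM, and Bysl, an early-binding factor that travels with the particle to the cytoplasm, had 7.73 and 8.57 TPM. Bysl was the lowest of the 47 by its average total (8.15 ± 0.594 TPM, SD, n = 2), and its values overlapped with those of Rrp12, Noc3l and Ddx51. On coding transcripts alone Ddx51 had the lowest average, at 7.505 TPM.

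Bop1, Pes1 and Wdr12 form the PeBoW complex, needed to process the large-subunit precursor. Their averages were 27.1 ± 5.85, 37.3 ± 5.84 and 32.1 ± 0.148 TPM (SD, n = 2 each). Pes1 was above Bop1 in both libraries (41.4 and 33.2 TPM, against 23.0 and 31.3 TPM), and Wdr12 (32.01 and 32.2 TPM) lay between them in both. The ranges of the 3 did not overlap, but the gaps between them were narrower than the spread of Pes1 or Bop1 between libraries. On coding transcripts alone the order did not hold: Pes1 had 28.2 and 27.1 TPM and Bop1 23.0 and 31.3 TPM, so Bop1 was higher in replicate 2.

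The 11 other large subunit factors had a median of 34.3 TPM. Gnl3 (nucleostemin, a nucleolar GTPase known from stem and progenitor cells) was the highest by average total TPM, with 57.2 TPM in replicate 1 and 63.6 in replicate 2. Rrp1 (49.6 and 63.5 TPM), Nop16 (57.8 and 43.5 TPM) and Noc2l (46.5 and 52.1 TPM) overlapped with it or with one another. Gnl2, the related GTPase, had 40.3 and 32.6 TPM, below Gnl3 in both libraries. Ftsj3, a methyltransferase-like processing factor, had 39.3 and 29.3 TPM, and Nop2, a methyltransferase of large-subunit rRNA, 31.1 and 34.4 TPM. Rrs1, which docks the 5S particle, had 21.3 and 21.6 TPM, and Nip7 17.7 and 17.2 TPM. By average total TPM Noc3l was the lowest, at 8.85 and 8.40 TPM. Ddx51, described below, was lower than Noc3l in replicate 1 (5.74 TPM) and in its average on coding transcripts (7.505 against 8.625 TPM). Noc2l, which is known to pair with Noc3l in yeast, was above Noc3l in both libraries.

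Sbds and Efl1 act last, in the cytoplasm, where they remove Eif6 from the large subunit. Sbds had 25.0 TPM in replicate 1 and 24.5 in replicate 2, and Efl1 had 14.6 and 10.5 TPM. Sbds, whose loss causes a marrow failure with neutropenia in people, was above Efl1 in both libraries. Eif6, not one of the 47, had 86.1 and 124 TPM, above both of the genes that release it.

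The wider pathway was expressed as broadly. Of 97 other genes of rRNA transcription, ribosome assembly, the shared and other polymerase subunits left aside, and the RNA exosome, 95 had a row and all 95 reached 1 TPM in both libraries, with a median of 23.2 TPM. Among 34 other small subunit factors the median was 21.1 TPM, from Utp23 (4.16 and 6.53 TPM) up to Snu13. Among 41 other large subunit factors it was 24.3 TPM, from Znhit6 (5.86 and 6.21 TPM) up to Eif6. Among 11 exosome genes, which trim and degrade precursor rRNA, it was 32.1 TPM, from Exosc4 (10.03 and 13.8 TPM) to Exosc8 (69.4 and 95.7 TPM).

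Between the 2 libraries the 47 genes were close. By TPM, 30 of the 47 were higher in replicate 2, against 54.6% of the protein-coding genes that average at least 1 TPM. The median log2 ratio, replicate 2 over replicate 1 with a pseudocount of 1 TPM, was 0.09, against 0.04 over those genes. Without Ddx51 the log2 TPM ratios ran from −0.44 (Efl1) to 0.56 (Utp18). Next to Utp18 came Rrp12 (0.53), Nob1 (0.51) and Nop58 (0.45). Of the 44 members that average at least 10 TPM, 1 was over 2-fold apart, against 3.13% of protein-coding genes at that level. The 95% Poisson intervals of CPM (counts scaled to the library total) did not overlap between libraries for 28 of these 44 members, against 65.1% of genes at that level, a share close to that of the other genes. Scaling matters for the direction: with the libraries scaled by trimmed mean of M values (TMM) the median log2 ratio was 0.01, with 24 members higher in replicate 2 and 23 lower. With that scaling the other protein-coding genes were not counted.

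Ddx51 was the member over 2-fold apart. It encodes a DEAD-box helicase that acts on the precursor of large-subunit rRNA. It had 5.74 TPM in replicate 1 and 32.8 in replicate 2, a log2 ratio of 2.33. By reads the gap was smaller: 790 expected counts in replicate 1 and 1349 in replicate 2, or 19.5 CPM (95% Poisson interval 18.2 to 20.9) and 37.8 CPM (35.8 to 39.9), a log2 CPM ratio of 0.92. By CPM none of the 47 was over 2-fold apart, and the same count over all protein-coding genes was not taken.

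The transcripts that its reads were given to also differed. In replicate 1 all 790 counts went to the coding transcript (ENSMUST00000031478), of 4846 bases. In replicate 2, 1139 counts went to that transcript, 151 to a nonsense-mediated decay model of 482 bases (ENSMUST00000148773) and 58.5 to a retained-intron model of 540 bases (ENSMUST00000136442). Those few reads on short models amounted to 17.7 TPM for the decay model and 5.83 TPM for the retained-intron model, against 9.27 TPM for the coding transcript. Shares from posterior mean TPM, which average over possible read assignments, gave the decay model 7.06% of the gene in replicate 1 and 53.4% in replicate 2. They gave the coding transcript 86.6% and 27.8%. On the coding transcript alone the values were 5.74 TPM in replicate 1 and 9.27 in replicate 2, a log2 ratio of 0.61, so a smaller gap remained there, as it did by CPM. By their RefSeq starts Ddx51 and Noc4l begin 69 bases apart on opposite strands of chromosome 5, and their GENCODE spans lie closer still. Noc4l too was higher in replicate 2, with a log2 CPM ratio of 0.44. Whether counting used strand is not stated, and the part of the shared start region in either value was not tested.

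**Figure D3:**
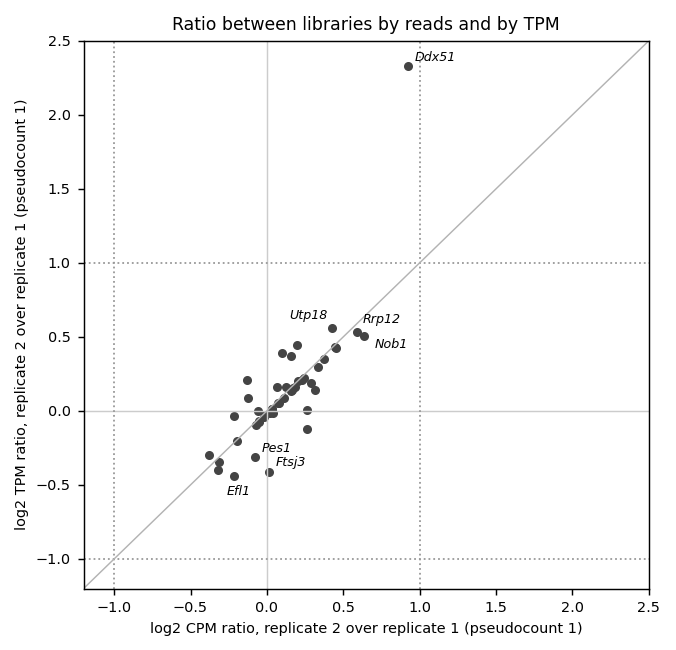
Log2 ratio of replicate 2 to replicate 1 by CPM (x axis) and by TPM (y axis), pseudocount 1, for each of the 47 genes; the diagonal marks equal ratios and the dotted lines 2-fold. Ddx51 lies at 0.92 by CPM and 2.33 by TPM, and the other 46 lie between −0.44 and 0.56 by TPM.

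Transcript models shaped the levels of several members. Of the 47 genes, 19 had 1 transcript in the tables and 28 had more, and their 193 transcripts comprised 89 coding, 62 retained-intron, 22 other processed and 20 nonsense-mediated decay models. Over all 47 genes, 81.7% of the TPM in replicate 1 and 78.4% in replicate 2 lay on coding transcripts. The median TPM of the members on coding transcripts alone was 25.7. Of the 44 members at 10 TPM or more, 1 (Ncl) had under 50% of its TPM on coding transcripts in both libraries, against 9.83% of protein-coding genes at that level, and 5 had a different leading transcript in each library, against 21% of genes at that level.

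**Figure D4:**
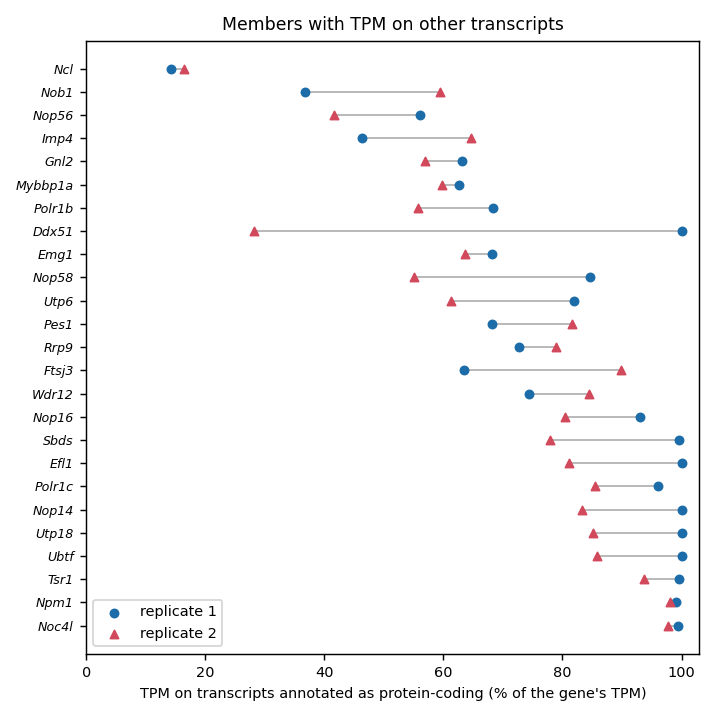
Percent of a gene's TPM on transcripts annotated as protein-coding, in replicate 1 (circles) and replicate 2 (triangles), for the 25 members below 99% in a library. Ncl is lowest at 14.3% and 16.4%, and Ddx51 spans the widest range, from 28.2% in replicate 2 to 100% in replicate 1.

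Ncl had 85.7% of its TPM on retained-intron models in replicate 1 and 83.6% in replicate 2. Ncl-202, a model of 3072 bases that keeps 2 introns whole (190 and 492 bases), had 183 and 178 TPM. Ncl-205, of 601 bases, had 107 and 99.8 TPM. The coding Ncl-201 had 41.2 and 44.5 TPM. Its model is 8202 bases long, with a last exon of 5978 bases, and it took 9743 of the gene's 27053 expected counts in replicate 1 and 9384 of 24499 in replicate 2. By coding transcripts alone Ncl had 49.4 and 56.2 TPM, below Mybbp1a (52.7 and 50.3 TPM) in replicate 1, and stood at rank 9 of the 47, against rank 2 by its total. The pattern was alike in the 2 libraries. Introns of Ncl hold small nucleolar RNA genes, and of these Snora75 had 22.5 expected counts in replicate 1 and 0 in replicate 2.

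Nop56 had 19 annotated transcripts, the most of the 47. Retained-intron models had 42.7% of its TPM in replicate 1 and 57.6% in replicate 2. The leading transcript was a short coding one in replicate 1 (ENSMUST00000028890, 946 bases, 30.8% of the gene's TPM) and a retained-intron one in replicate 2 (ENSMUST00000145335, 24.6%). The longer coding transcript of 1877 bases (ENSMUST00000103198) had 49.8 and 51.8 TPM, nearly equal in the 2 libraries, so the higher total of the gene in replicate 2 lay outside it. Nop58 was similar in kind: its leading coding transcript (ENSMUST00000027174) had 31.2 and 36.6 TPM, while a nonsense-mediated decay model of 373 bases had 5.30 and 23.4 TPM.

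Nob1 differed most between libraries in its coding part. Its coding transcript (ENSMUST00000003946) had 8.97 TPM in replicate 1 and 20.8 in replicate 2, and a nonsense-mediated decay model (ENSMUST00000169311) had 14.1 and 8.86 TPM. On coding transcripts Nob1 was the one member over 2-fold apart between libraries, with a log2 ratio of 1.13. How many of all protein-coding genes were that far apart on coding transcripts was not counted. Efl1 split between a coding transcript of 755 bases (7.79 and 3.61 TPM) and a pair of near-equal length. Of that pair, the one of 3608 bases had 6.43 and 0 TPM and the one of 3610 bases 0.38 and 4.91 TPM. By these values each took most of the pair's TPM in a different library. The deposited shares from posterior mean TPM, averaged over possible read assignments, split the pair more evenly. They gave 28.6% and 22.0% of the gene for the one of 3608 bases, and 17.4% and 23.8% for the other. The split within the pair is therefore uncertain. Imp4 had 46.4% of its TPM on its coding transcript in replicate 1 and 64.6% in replicate 2.

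The forms of Ubtf were both present. Transcripts that hold the 111-base exon printed above (Ubtf-202 and Ubtf-210) had 10.2 TPM in replicate 1 and 10.8 in replicate 2. Those that lack it (Ubtf-203 and Ubtf-213) had 13.9 and 16.7 TPM. Of these 4 transcripts, those with the exon made up 42.2% in replicate 1 and 39.2% in replicate 2. The exon codes for part of the second HMG box, a DNA-binding domain. The longer protein is the form known for ribosomal DNA transcription, and the shorter one is known to be weak in it. The split between Ubtf-203 and Ubtf-213, which have the same number of coding bases, varied (Ubtf-203 had 0 and 5.30 TPM), while the sums with and without the exon kept their order.

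Npm1 spread its TPM over 3 coding transcripts. The long form had 349 TPM in replicate 1 and 396 in replicate 2 (373 ± 33.7, SD, n = 2). The form that skips the 84-base exon printed above (ENSMUST00000093201) had 402 and 362 TPM (382 ± 28.4). The short-ended form had 349 and 295 TPM (322 ± 38.5). These 3 took 97.2% of the gene's TPM in replicate 1 and 94.2% in replicate 2, and the leading one differed between libraries. The exon-skipping form was above the short-ended form in both libraries, and the values of the long form overlapped with those of both. The coding end of the long form carries the tryptophan codons that nucleophosmin needs to stay in the nucleolus, as known for the human protein, and the short-ended form lacks that end.

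Polr1d used both of its forms about equally. Polr1d-201 had 33.4 TPM in replicate 1 and 37.7 in replicate 2, and Polr1d-202 had 36.1 and 42.6 TPM. Polr1d-202 made up 51.9% and 53.1% of the gene's TPM. Since the coding parts differ after the 26 shared bases, the gene's level of 74.9 ± 7.66 TPM (SD, n = 2) is a sum of transcripts for different proteins.

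**Figure D5:**
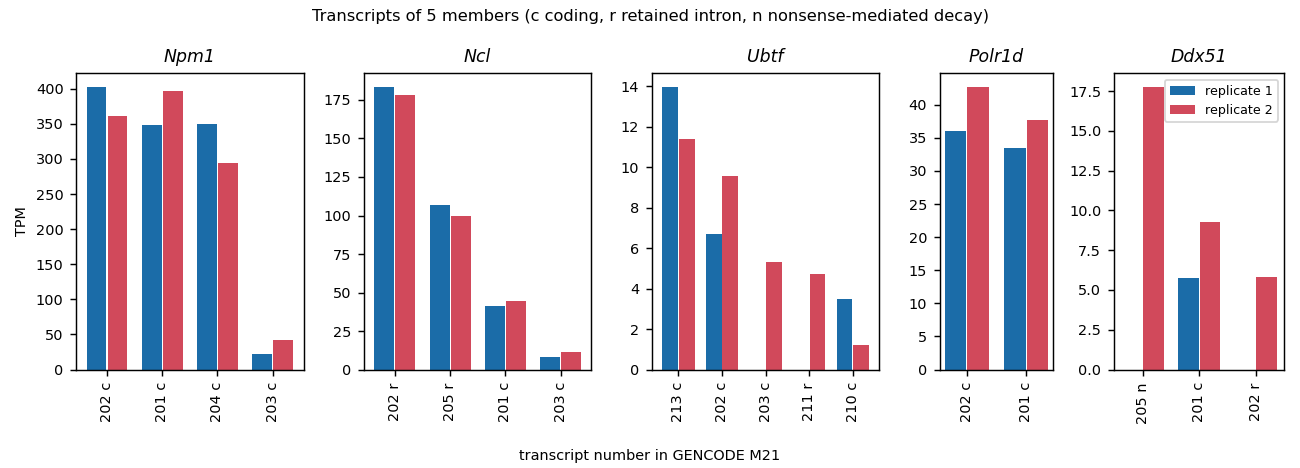
TPM of the leading transcripts of Npm1, Ncl, Ubtf, Polr1d and Ddx51 in replicate 1 and replicate 2 (paired bars, each panel with its own scale from 0). Npm1 has 3 coding transcripts between 295 and 402 TPM, the Ncl bars are led by the retained-intron model at 183 and 178 TPM, and the decay model of Ddx51 appears in replicate 2 alone.

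Some levels are less certain than their counts imply. Fractional expected counts, a sign that reads were shared with other loci, were present in 7 members: Polr1d, Npm1, Ncl, Fbl, Nop56, Tsr1 and Wdr12. A protein-coding gene on the other strand overlapped 12 members, and in 9 of these it reached 1 TPM in both libraries. Bysl overlaps Ccnd3, which had 47.7 TPM in replicate 1 and 61.6 in replicate 2. Nop56 overlaps Idh3b (62.8 and 79.7 TPM), and Gnl3 overlaps Pbrm1 (33.1 and 32.5 TPM). The part of those reads in the members' values was not tested. Among the 47, 5 members hold 17 annotated small nucleolar RNA genes, of which 2 had counts in a library. The same counts over all protein-coding genes were not taken, so these describe the members alone and do not set them apart.

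The promoters were searched for the E-box CACGTG, the letters bound by MYC and MAX and by other factors of that class. The word reads the same on both strands. RefSeq windows of GRCm38.p6, from 250 bases before to 50 after a gene's start, were at hand for 39 of the 47 genes. Of these, 10 held the E-box, or 25.6%, against 13.3% of 4920 protein-coding genes that average at least 10 TPM and 8.09% of the 27025 genes with a window. The difference lay after the start. In the 250 bases before the start 4 of 39 members held it (10.3%, against 11.1% of the 4920 genes), and in the 50 bases after the start 6 of 39 did (15.4%, against 2.36%). This division of the window was chosen after the positions were seen. The windows of members and of the 4920 genes were close in base composition, with a median GC content of 61.7% and 61.0%. The E-box itself holds a CpG, and the median number of CpG dinucleotides per window was 25 in members and 22 in the 4920 genes; the part of this in the difference was not tested.

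The sites are shown as 30 bases each, read on the gene's strand, with the E-box in capitals, because the counts above turn on their place relative to the start. Counting the first transcribed base as 1, the E-box began at 3 in Pes1, 16 in Utp4, 25 in Tsr1, 29 in Ltv1, 38 in Utp20 and 41 in Mybbp1a:
Pes1, chr11:3963965-3963994, plus strand: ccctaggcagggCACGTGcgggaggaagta
Utp4, chr8:106893643-106893672, plus strand: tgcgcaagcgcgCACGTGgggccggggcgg
Tsr1, chr11:74898092-74898121, plus strand: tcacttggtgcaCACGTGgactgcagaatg
Ltv1, chr10:13193092-13193121, minus strand: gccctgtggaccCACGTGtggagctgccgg
Utp20, chr10:88826765-88826794, minus strand: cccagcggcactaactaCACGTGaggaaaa
Mybbp1a, chr11:72441347-72441376, plus strand: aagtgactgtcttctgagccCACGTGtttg

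Before the start the E-box began at −20 in Utp18, −60 in Nop2 and −121 in Imp4, and Rrn3 held 2, at −48 and −215. For Rrn3 the whole 250 bases before the start are given, so that both can be seen in place:
Utp18, chr11:93885769-93885798, minus strand: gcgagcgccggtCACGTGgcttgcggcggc
Nop2, chr6:125131811-125131840, plus strand: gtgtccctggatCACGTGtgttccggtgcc
Imp4, chr1:34439696-34439725, plus strand: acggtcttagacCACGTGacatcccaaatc
Rrn3 promoter, chr16:13780449-13780698, plus strand: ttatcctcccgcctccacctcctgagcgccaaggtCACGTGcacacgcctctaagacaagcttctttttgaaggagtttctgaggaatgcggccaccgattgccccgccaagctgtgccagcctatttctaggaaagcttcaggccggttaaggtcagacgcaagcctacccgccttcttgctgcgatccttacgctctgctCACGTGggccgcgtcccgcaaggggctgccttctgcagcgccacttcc

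Whether the E-box goes with the level was not tested. The 10 members that held the E-box had a median of 26.2 TPM (from 11.6 to 84.1). The 29 searched members without it had a median of 32.6 TPM (from 8.15 to 344), an overlapping range. The 8 members with no window were left out, among them Npm1, the highest member at 1125 TPM on average. The highest member with the letters was Mybbp1a and the lowest was Utp18. A match is a description of these letters and not a bound site, and no binding was measured here.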

How the data were processed

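Total RNA of 2 GMP libraries was measured by RNA-seq. The authors deposited expected counts (estimated reads, not normalized), TPM and FPKM per gene and transcript, and transcript shares in percent, made from reads aligned to mm10 with annotation M4, per the deposited text files. Aligner, quantifier and any use of strand: not given in the sources used here. TPM as deposited is scaled over all rows, spike-ins and rRNA included.

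Symbols, biotypes, transcript types and gene spans came from GENCODE M21 by Ensembl identifier, and promoters from the RefSeq table. Symbols of 3 non-members were matched by older names (Polr1f, Polr1g and Polr1h). Riok2, Exosc6 and Rn45s had no matching row. The members and lists were chosen with earlier results of these data known.

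CPM used the library total of 69691 rows, with exact 95% Poisson intervals, and shares of counts have Wilson intervals. No molecular identifiers are named, so these intervals cover counting error only. Log2 ratios use a pseudocount of 1, which understates ratios of low genes. Named genes were the highest and lowest of each role, the 6 highest, 6 lowest and 6 furthest apart members, all of RNA polymerase I, and members with a low or differing leading transcript; others were added. TMM factors came from edgeR 4.0.16 and size factors from DESeq2 1.42.0 in R 4.3.3, after rounding the expected counts, and no gene was tested. Python 3.11.15, numpy 2.4.6, pandas 2.3.3, scipy 1.17.1 and matplotlib 3.10.9 did the rest, and the steps were tested on simulated data. Protein sequences were not used here.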

Additional observations from a re-analysis of the deposited data

How the results depend on the processing

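No paired analysis was possible because the series has 1 group, so there are no groups whose replicates could be matched. All 47 members reached 1 TPM in both libraries under each alternative tried. These were FPKM, TPM rescaled without rRNA, numeric and spike-in rows and a few other abundant RNAs, a minimum of 10 expected counts, and either library alone. None of them could lower the count here. The lowest FPKM was 4.16 (Ddx51 in replicate 1), and rescaling multiplied TPM by 1.80 and 1.75. The lowest count was 435, and passing in both libraries implies passing in each. Their median TPM of 29.7 was 21.7 as FPKM, 52.6 as rescaled TPM and 25.7 on coding transcripts alone (chosen after seeing the data), and ran from 26.9 to 32.2 over the libraries. FPKM lowered every role median by a common factor: to 20.1 for RNA polymerase I, 61.4 for nucleolar proteins, 87.4 for box C/D, 16.9 for the small subunit processome, 19.1 for late small subunit factors, 23.4 for PeBoW, 25.0 for other large subunit factors and 13.6 for cytoplasmic release. With either library left out, these medians ran from 23.8 to 31.2, 84.07 to 84.14, 110.52 to 128.88, 21.2 to 23.6, 24.4 to 25.3, 32.01 to 32.22, 32.8 to 39.3 and 17.5 to 19.8 TPM, with the roles listed as before. The members' share of TPM was 0.565% and their share of expected counts 0.751% when rRNA, numeric and spike-in rows were left out of the totals, and from one library to the other these shares ran from 0.320% to 0.335% and from 0.404% to 0.428%. The count of members over 2-fold apart was 1 by TPM, also with a pseudocount of 0.1, and 0 with TMM scaling, 0 with median-of-ratios scaling and 0 by CPM (the last chosen after seeing the data). Ddx51 was at log2 0.84 with both scalings. Beyond the members, genes over 2-fold apart were counted by TPM with a pseudocount of 1 alone. The median log2 ratio stayed between 0.01 and 0.10 in all 6 alternatives. The E-box count of 10 became 4 in the bases before the start alone and 6 in those after it. Expected counts of at least 435 set no limit on detection of the 47 genes. The number of libraries limits what can be said of their spread, since an SD over 2 is itself uncertain.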
